A study of Mus musculus with 37 samples.

Results

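The miR-130 and miR-301 family in mouse blood was examined through its 4 guide-strand members, miR-130a-3p, miR-130b-3p, miR-301a-3p and miR-301b-3p, chosen by name from 1915 mature microRNAs in the table of read counts. The 37 small RNA libraries came from total blood of male C57BL/6 mice of the learning group, which were trained in the Morris water maze and bled every 6 weeks. The youngest group, 12 months old, had 9 libraries, followed by 12 libraries at 13.5 months, 5 at 15 months and 11 from the oldest mice, aged 16.5 months. All mice were wild type and were housed singly, and blood was drawn from the orbital sinus into an RNA-preserving reagent. According to the methods, the 12-month blood was drawn before any behavioural experiment and the later samples after a probe test, whereas a figure legend of the study places every collection after the maze sessions of that age. Age and training cannot be told apart between 12 months and the later ages. By the study's design, each later age brought another round of training, with the platform moved, and another bleeding. The number of earlier rounds thus rose with age, so age cannot be told apart from them among the later ages of these libraries either. The study also bled untrained aging mice as a control for training, but they are not among these 37 libraries. The study describes a longitudinal design with repeated bleeding, but the labels do not say whether replicates of one number are the same mouse. The main tests treated the 37 libraries as independent, and p-values measure the spread between these libraries.

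A microRNA guides Argonaute to messenger RNAs mainly through its seed, bases 2 to 8 from the 5′ end, and microRNAs with one seed can act on overlapping sets of targets. This family is conserved among vertebrates and has been studied in blood vessels, in hematopoietic cells and in fat cells, where miR-130 represses Pparg. Its mouse precursors are encoded at 3 loci, and Mir130b and Mir301b form a cluster.

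The mature sequences of 3 members show what the family shares and where its members can be told apart in sequencing. RefSeq (GRCm38.p6) held these 3 of the 4 members, written below with the seed in capitals. No mature sequence is given for miR-301b-3p.
mmu-miR-130a-3p: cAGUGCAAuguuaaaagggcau
mmu-miR-130b-3p: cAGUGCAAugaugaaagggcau
mmu-miR-301a-3p: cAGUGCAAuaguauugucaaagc
The seed AGUGCAA was the same in all 3. Counted from 1 at the 5′ end with the miR-130a-3p base first, miR-130b-3p differed at U11A and A13G, so the first 10 bases were identical. The miR-301a-3p sequence was identical to both over its first 9 bases and differed from miR-130a-3p at 10 of the 22 positions compared. Reads were mapped with 0 mismatches, so a read that covers these positions fits one member only.

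The arms of the Mir130b precursor are shown because both were abundant enough to be tested. In its hairpin of 82 bases (GRCm38.p6, chr16:17124061-17124142, minus strand) the 5p and the 3p mature sequences are in capitals.
Mir130b: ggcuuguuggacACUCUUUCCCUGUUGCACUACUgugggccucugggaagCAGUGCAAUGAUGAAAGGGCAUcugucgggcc
In the GENCODE annotation of GRCm38, Mir301b lay at chr16:17124400-17124496 on the same strand, with 257 bases between the precursors, and both fell in an intron of the protein-coding gene 2610318N02Rik. Mir301, the precursor of miR-301a, lay at chr11:87113004-87113089 on the plus strand in an intron of Ska2, a gene for a spindle and kinetochore protein. Mir130a lay at chr2:84741115-84741178 on the minus strand, outside any other annotated gene. The cluster neighbours were the only precursors within 10 kb of each other on one strand in this family, and no precursor outside the family lay that near.

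The libraries held between 2619533 and 20268095 counts in the first row of each microRNA. With miR-486b-5p left out of the totals, the erythroid miR-486a-5p took 79.6% to 94.3% of the counts. Without both miR-486a-5p and miR-486b-5p, 140292 to 1131713 counts were left for all other microRNAs. The 4 members together had 21829 reads, and their share of the counts outside miR-486 was between 0.073% and 0.155%. Levels are given below as CPM, counts per 1000000 of the library scaled with TMM factors, where the library includes miR-486a-5p and miR-486b-5p. Counts were not scaled by the length of a microRNA, and ligation favours some ends over others, so an order of levels between members holds for these reads.

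The family consisted mainly of miR-130b-3p and miR-130a-3p. Over the 37 libraries the mean level was 41.5 CPM for miR-130b-3p, 25.1 CPM for miR-130a-3p, 1.41 CPM for miR-301a-3p and 0.10 CPM for miR-301b-3p. The order of the raw counts was nearly fixed: miR-130b-3p exceeded miR-130a-3p in 36 of 37 libraries and equalled it in 1, miR-130a-3p exceeded miR-301a-3p in 37, and miR-301a-3p exceeded miR-301b-3p in 37. On average 60.2% ± 6.6 (SD, n = 37) of the family's reads in a library were miR-130b-3p, 37.5% ± 6.2 were miR-130a-3p, 2.20% ± 1.28 were miR-301a-3p and 0.160% ± 0.200 were miR-301b-3p. The clustered precursors gave both the strongest and the weakest member. Of the 323 microRNAs that were tested, those above 1 read in 50% or more of the libraries, miR-130b-3p ranked 63rd by mean CPM, miR-130a-3p 74th and miR-301a-3p 188th. The fourth member, miR-301b-3p, did not pass this filter.

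**Figure D1:**
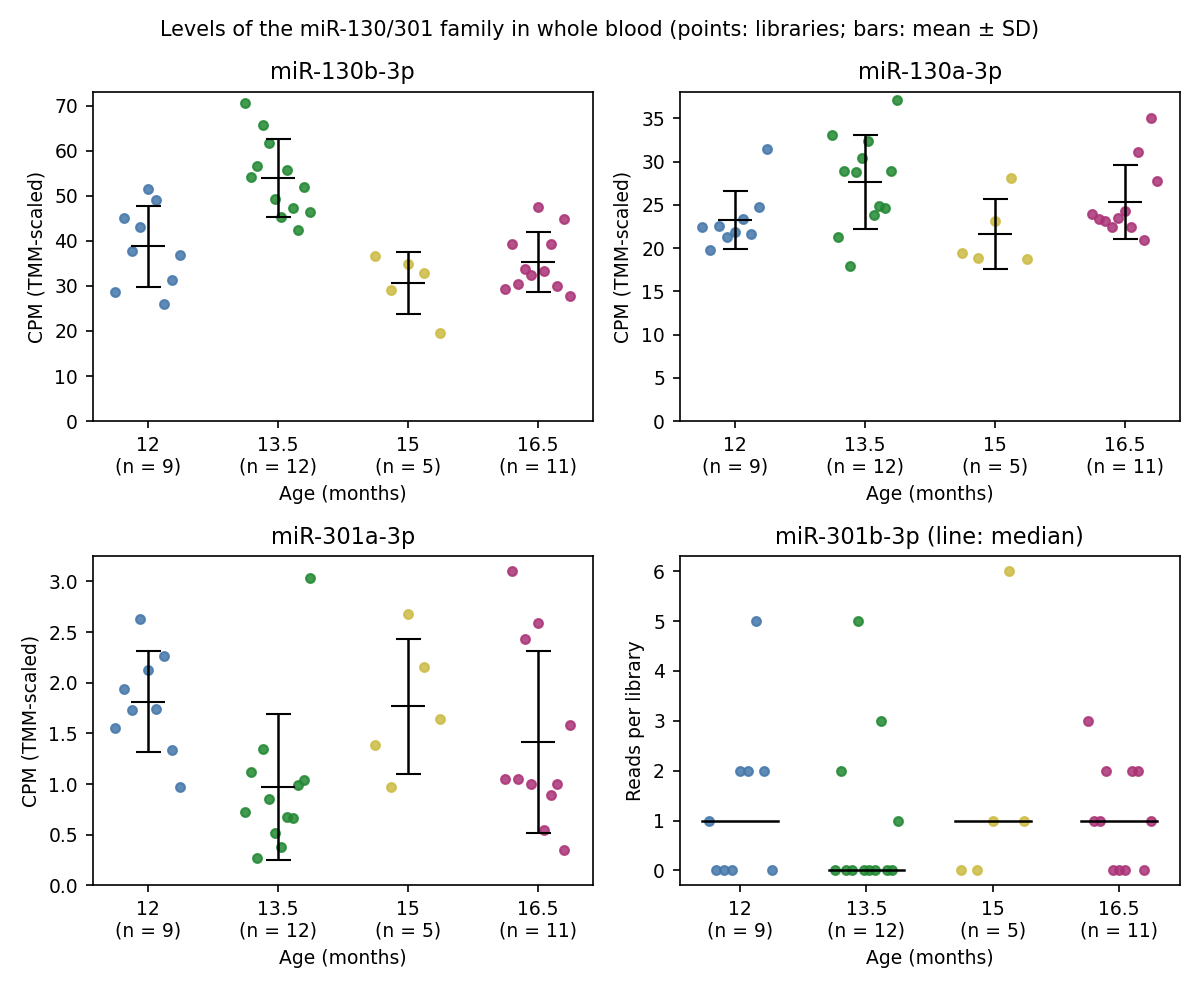
Levels of the 4 members by age in months, with each point 1 library. For miR-130b-3p, miR-130a-3p and miR-301a-3p the vertical axis is TMM-scaled CPM and the bars are mean ± SD, whereas for miR-301b-3p it is raw reads per library and the line is the median. All 5 libraries of 15 months lie below the 12 libraries of 13.5 months for miR-130b-3p, and the libraries of miR-301b-3p hold 0 to 6 reads.

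miR-130b-3p was the member that differed most clearly between ages, with its highest level at 13.5 months. At 12 months its lowest, median and highest levels were 26.1, 37.8 and 51.6 CPM, from 109 to 607 reads per library. At 13.5 months they were 42.3, 53.1 and 70.5 CPM, from 98 to 774 reads. The 5 libraries of 15 months held 36.7, 29.2, 34.9, 32.8 and 19.6 CPM, and at 16.5 months the lowest, median and highest levels were 27.8, 33.3 and 47.6 CPM. The range at 13.5 months thus lay wholly above that at 15 months and overlapped those at 12 and 16.5 months. The means were 38.8 ± 9.0 (SD, n = 9), 53.9 ± 8.6 (n = 12), 30.6 ± 6.8 (n = 5) and 35.3 ± 6.6 CPM (n = 11) in order of age.

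The age difference of miR-130b-3p passed the test across all microRNAs. In edgeR's quasi-likelihood F-test of age the adjusted p was 2.6e-04, and 104 of the 323 microRNAs tested passed (32.2%), among which it ranked 27th by p. It was the only one of the 3 tested members to pass. miR-130b-3p rose by 0.47 (log2, SE 0.14) at 13.5 against 12 months (edgeR adjusted p = 0.0146), where 9.91% of microRNAs passed as higher. All 12 libraries of 13.5 months exceeded the median of 12 months. It was lower by 0.82 (SE 0.18) at 15 than at 13.5 months (log2 fold change -0.82, edgeR adjusted p = 0.0014), where 6.5% of microRNAs passed as lower, and it ranked 10th of the comparison by adjusted p. At 16.5 against 13.5 months the log2 fold change was -0.61 (SE 0.13, edgeR adjusted p = 5.8e-04), with 14.9% of microRNAs lower, and a library of 16.5 months exceeded a library of 13.5 months in 5 of 132 pairs.

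The other ages were not separated for miR-130b-3p. The log2 fold change was -0.34 (SE 0.18) at 15 against 12 months (edgeR adjusted p = 0.41), where 0% of microRNAs passed as higher and 0.31% as lower. It was -0.14 (SE 0.14) at 16.5 against 12 months (edgeR adjusted p = 0.60), with 4.64% higher and 9.6% lower over all microRNAs, and 0.20 (SE 0.17) at 16.5 against 15 months (edgeR adjusted p = 0.87), with 0.31% higher and 0% lower. In the order of its mean levels, 15, 16.5, 12 and 13.5 months, only the last step was larger than the spread between libraries. These comparisons share libraries, so the high level at 13.5 months enters 3 of the 6. The rise at 13.5 against 12 months lost its call with the library totals in place of the TMM factors (0.17, edgeR adjusted p = 0.66), a scaling that moved the median of all microRNAs in this comparison to -0.31. Relative to that median the change was 0.48, against 0.51 with the TMM factors. The rise also lost its call without a filter on low counts (0.44, edgeR adjusted p = 0.18) and with some libraries as the TMM reference (edgeR adjusted p up to 0.055). The 2 falls from 13.5 months kept their calls under every alternative and without any 1 library.

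miR-130a-3p, which has the same seed and the sequence nearest to miR-130b-3p, varied less. Its lowest, median and highest levels were 19.8, 22.5 and 31.4 CPM at 12 months and 17.9, 28.8 and 37.1 CPM at 13.5 months. The 5 libraries of 15 months held 19.4, 18.8, 23.1, 28.2 and 18.8 CPM. At 16.5 months the lowest was 20.9, the median 23.5 and the highest 35.0 CPM, so all 4 ages overlapped. The means were 23.2 ± 3.4 (SD, n = 9), 27.7 ± 5.4 (n = 12), 21.7 ± 4.1 (n = 5) and 25.3 ± 4.3 CPM (n = 11). The F-test of age gave an adjusted p of 0.20 (edgeR), and 0 of its 6 contrasts passed in edgeR or in DESeq2, with 1 at an unadjusted edgeR p under 0.05. The contrasts with the smallest unadjusted p were 15 against 13.5 months (log2 fold change -0.35, SE 0.16, edgeR adjusted p = 0.18) and 13.5 against 12 months (0.25, SE 0.13, adjusted p = 0.18). With 2 RUVs factors for unwanted variation, both passed (edgeR adjusted p = 0.036 and 0.024), as did the F-test (0.030). With the most favourable of the 37 libraries as TMM reference, the edgeR adjusted p was 0.037 for the F-test, 0.036 at 13.5 against 12 months and 0.047 at 15 against 13.5 months.

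miR-301a-3p went the other way at 13.5 months, at a level near the limit of these libraries. It had 1 to 44 reads in a library and 457 in all. Its lowest, median and highest levels were 0.972, 1.74 and 2.63 CPM at 12 months and 0.265, 0.784 and 3.03 CPM at 13.5 months. The 5 libraries of 15 months held 1.38, 0.969, 2.67, 2.16 and 1.64 CPM, and at 16.5 months the levels ran from 0.354 over 1.05 to 3.10 CPM. At 13.5 months 11 of 12 libraries were below the median of 12 months, and replicate 12 alone, with 27 reads, was above it. The ages nevertheless overlapped, since that library was also above the highest of 12 months. The means were 1.81 ± 0.50 (SD, n = 9), 0.968 ± 0.722 (n = 12), 1.77 ± 0.67 (n = 5) and 1.42 ± 0.90 CPM (n = 11).

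The fitted change of miR-301a-3p at 13.5 against 12 months was -0.90 (log2, SE 0.33, edgeR adjusted p = 0.0439), where 11.8% of microRNAs passed as lower. The F-test of age did not pass (edgeR adjusted p = 0.10). At 15 against 13.5 months the log2 fold change was 0.88 (SE 0.38, edgeR adjusted p = 0.16), with 3.41% of microRNAs higher, and at 16.5 against 13.5 months it was 0.54 (SE 0.32, adjusted p = 0.22), with 11.8% higher. The call at 13.5 against 12 months rested on few reads: it held in 17 of 37 fits that left out 1 library, with adjusted p between 0.0021 without replicate 12 of 13.5 months and 0.11 without replicate 7 of 12 months. Without replicate 12 of 13.5 months the F-test passed as well (edgeR adjusted p = 0.0044), and so did 15 against 13.5 months (0.0098) and 16.5 against 13.5 months (0.015). Without the 4 libraries under 200000 counts outside miR-486 the change was -0.85 and did not pass (adjusted p = 0.086).

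**Figure D2:**
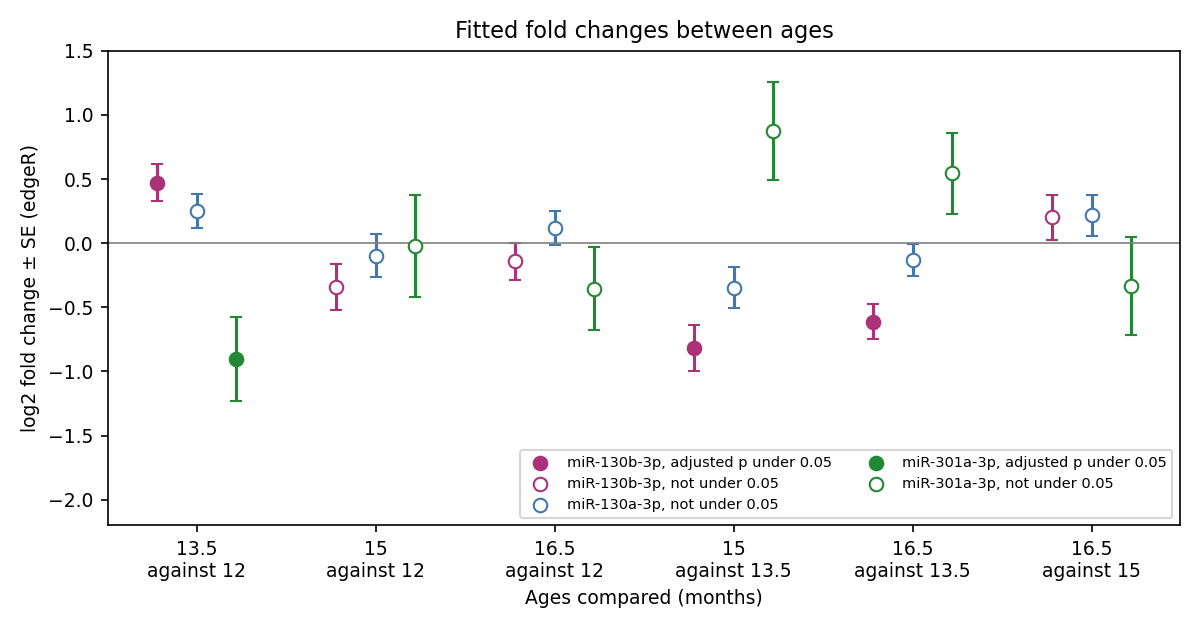
Fitted log2 fold change ± SE (edgeR) of the 3 tested members for the 6 comparisons of ages in months, first age minus second, filled where the adjusted p was under 0.05. miR-130b-3p and miR-301a-3p have opposite signs in the 3 comparisons that involve 13.5 months, and miR-130a-3p has no filled point.

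miR-301b-3p, the second member of the cluster, was close to absent. It had 0 to 6 reads in a library and 43 in all, with at least 1 read in 19 of 37 libraries and more than 1 in 12. The 9 libraries of 12 months held 12 reads together, the 12 of 13.5 months 11, the 5 of 15 months 8 and the 11 of 16.5 months 12. Per 1000000 counts outside miR-486 this was 3.14 (95% exact Poisson interval 1.62 to 5.48), 1.72 (0.859 to 3.08), 3.09 (1.33 to 6.08) and 1.87 (0.968 to 3.27), intervals that cover counting error only. All 4 intervals overlap, so a difference between ages was not detectable at this depth. Without a filter on low counts, the edgeR F-test of age gave miR-301b-3p an adjusted p of 0.80 over 960 microRNAs. The same measure for miR-301a-3p was 33.2 (27.7 to 39.5) at 12 months, 15.2 (12.3 to 18.5) at 13.5, 34.4 (27.6 to 42.3) at 15 and 22.5 (19.0 to 26.5) at 16.5 months, so the reads of miR-301a-3p exceeded those of miR-301b-3p at each age.

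The cluster was compared with the 2 single loci by ratios of counts within a library, which do not depend on library size or scaling. Using 5 ratios in 6 pairs of ages there were 30 permutation tests (two-sided, exact where an age had fewer than 10 libraries, 100000 resamples otherwise), whose p-values were adjusted together, and 3 passed. The reads of miR-130b-3p plus miR-301b-3p over those of miR-130a-3p plus miR-301a-3p stood, in order of age, at a log2 ratio of 0.61 ± 0.40 (SD, n = 9), 0.92 ± 0.40 (n = 12), 0.38 ± 0.35 (n = 5) and 0.40 ± 0.22 (n = 11). In linear terms the cluster gave 1.52, 1.89, 1.30 and 1.32 reads for each read of the other loci. The lowest library of 13.5 months, at 1.16, was still within the range of 16.5 months, which reached 1.76.

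At 16.5 against 13.5 months the log2 ratio of the cluster to the other loci differed by -0.53 (SE 0.13, permutation p = 8.8e-04, adjusted p = 0.021), and a library of 16.5 months was above one of 13.5 months in 16 of 132 pairs. The difference at 15 against 13.5 months was about as large (-0.54, SE 0.19) but did not pass (exact permutation p = 0.019, adjusted p = 0.11), and that at 13.5 against 12 months was 0.31 (SE 0.18, exact permutation adjusted p = 0.26). The ratio of miR-130b-3p to miR-130a-3p alone gave the same call at 16.5 against 13.5 months (-0.50, SE 0.14, permutation p = 0.0019, adjusted p = 0.021). It is nearly the same quantity, since miR-301b-3p and miR-301a-3p were 0.160% and 2.20% of the family's reads, so these calls are not separate results. Leaving out the 4 libraries with few counts outside miR-486 left nearly the same differences (-0.51 and -0.47) with adjusted p = 0.057 for both by permutation, so neither passed.

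The other ratio that passed concerned the single loci. For each read of miR-130a-3p there were, in order of age, 0.079, 0.033, 0.081 and 0.051 reads of miR-301a-3p, taken as the mean log2 ratio. At 13.5 against 12 months the log2 ratio of miR-301a-3p to miR-130a-3p was -1.26 (SE 0.33, exact permutation p = 0.0021, adjusted p = 0.021), and a library of 13.5 months was above one of 12 months in 12 of 108 pairs. At 15 against 13.5 months it was 1.30 (SE 0.32) with 53 of 60 pairs higher at 15 months, which did not pass (exact permutation p = 0.0089, adjusted p = 0.067). The difference at 13.5 against 12 months kept its call without any 1 library (adjusted p up to 0.0496 by exact permutation), and lost it without the 4 libraries of few counts (-1.25, exact permutation adjusted p = 0.057).

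**Figure D3:**
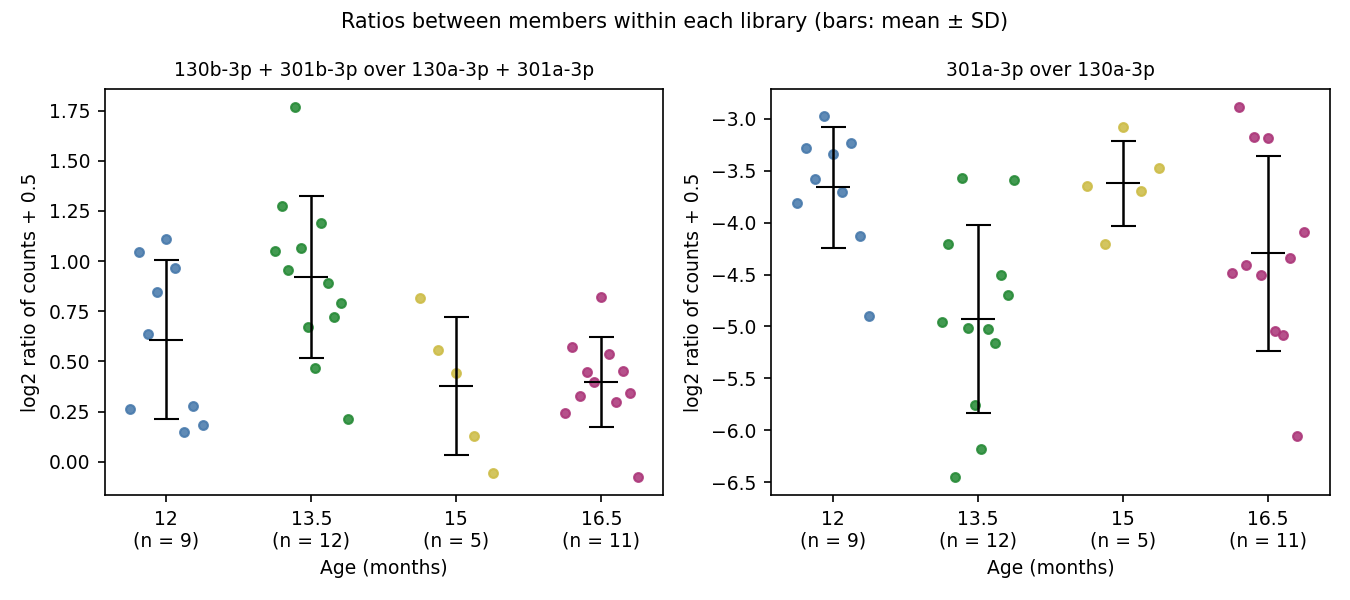
Log2 ratios of counts + 0.5 within each library by age in months, with bars for mean ± SD. On the left the cluster (miR-130b-3p plus miR-301b-3p) is set over miR-130a-3p plus miR-301a-3p, and the libraries of 13.5 months lie around 0.92 against 0.40 at 16.5 months. On the right miR-301a-3p is set over miR-130a-3p, with most libraries of 13.5 months below those of 12 and 15 months.

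Within the cluster the ratio of miR-301b-3p to miR-130b-3p could not be resolved. Its mean corresponded to between 0.0023 and 0.0054 reads of miR-301b-3p for each of miR-130b-3p depending on age. The unadjusted p was under 0.05 for the 3 comparisons with 13.5 months (0.036, 0.041 and 0.041 by permutation), the adjusted p was 0.14 for each, and 0 of the 6 differences passed. Because 18 libraries had 0 reads, the value of such a library depends on its depth and on the 0.5 added to the count. The ratio of miR-301b-3p to miR-301a-3p gave 0 of 6 passing differences as well (adjusted p 0.45 or more by permutation).

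The 5p arms of the precursors were nearly silent apart from miR-130b-5p. miR-130a-5p had 3 reads over all libraries, miR-301a-5p 22 and miR-301b-5p 0, where a total of 0 does not exclude reads at greater depth. miR-130b-5p had 39 to 340 reads in a library and a mean of 19.0 CPM, and its seed CUCUUUC differs from that of the family. Its mature sequence, with the seed in capitals, comes from chr16:17124109-17124130 of GRCm38.p6, minus strand.
mmu-miR-130b-5p: aCUCUUUCccuguugcacuacu
The lowest, median and highest levels of miR-130b-5p were 6.62, 13.1 and 30.5 CPM at 12 months and 5.62, 18.4 and 31.6 CPM at 13.5 months. The 5 libraries of 15 months held 26.0, 13.1, 33.0, 16.3 and 8.41 CPM, and at 16.5 months the levels were 13.6, 24.8 and 34.4 CPM. The mean was lowest at 12 months (15.0 ± 7.4, SD, n = 9) and highest at 16.5 months (23.4 ± 6.8, n = 11). As a level, miR-130b-5p passed 0 of 6 contrasts in edgeR or in DESeq2 (1 at an unadjusted edgeR p under 0.05) and not the F-test (edgeR adjusted p = 0.22), with the largest change at 16.5 against 12 months (log2 fold change 0.64, SE 0.27, adjusted p = 0.10). With 1 and 2 RUVs factors the level passed the F-test (edgeR adjusted p = 0.0041 and 0.0047) and was higher at 16.5 than at 13.5 months (log2 fold change 0.55 and 0.51, edgeR adjusted p = 6.9e-04 and 9.5e-04). The contrast of 16.5 with 12 months passed with 2 RUVs factors (edgeR adjusted p = 0.041), with the replicate block (0.024) and with the most favourable TMM reference (0.043).

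In each comparison of 15 or 16.5 with 12 or 13.5 months, the log2 ratio of the 2 Mir130b arms differed in size more than either level. At 13.5 against 12 months the ratio differed by -0.26, less in size than the 0.47 of the miR-130b-3p level. At 16.5 against 15 months the difference of the ratio, 0.16, was below those of both levels (0.20 for miR-130b-3p and 0.28 for miR-130b-5p). This ratio was added after its values were seen, and it was tested with the same permutation test in all 65 precursors with both arms tested, adjusting over the 65 within each comparison. For each read of miR-130b-3p the mean ratio gave 0.36, 0.30, 0.58 and 0.65 reads of miR-130b-5p in order of age. In log2 terms the ratio was -1.47 ± 0.47 (SD, n = 9), -1.73 ± 0.62 (n = 12), -0.79 ± 0.49 (n = 5) and -0.63 ± 0.37 (n = 11). The 3p arm was nevertheless the more abundant in 37 of 37 libraries.

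At 16.5 against 13.5 months the log2 ratio of the 5p to the 3p arm was higher by 1.10 (SE 0.21, permutation p = 3e-05, adjusted p = 2.8e-04), and the later library was higher in 128 of 132 pairs. At 16.5 against 12 months it was higher by 0.84 (SE 0.19, exact permutation p = 4.2e-04, adjusted p = 0.0058), in 89 of 99 pairs. Among all precursors the 5p to 3p ratio passed as higher in 12.3% and 4.62% of the 65 in these comparisons. Lower ratios passed as well, among them miR-1198 (-2.49) and miR-340 (-2.48) in the first and miR-3061 (-2.23) in the second. By absolute size the difference of Mir130b ranked 20th and 19th, so larger shifts occurred elsewhere. At 15 against 13.5 months the difference was 0.94 (SE 0.28, exact permutation p = 0.0084, adjusted p = 0.11), and at 13.5 against 12 months it was -0.26 (SE 0.24, exact permutation adjusted p = 0.48). Both calls held without any 1 library and without the 4 libraries of few counts. The call at 16.5 against 12 months was lost with the replicate block (0.91, exact sign-flip permutation p = 0.0078, adjusted p = 0.051). For ratios this block flipped the signs of differences between same-numbered libraries and left out unmatched ones. In these alternatives only the p-value of Mir130b was recomputed, and it was adjusted beside the main p-values of the other precursors.

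**Figure D4:**
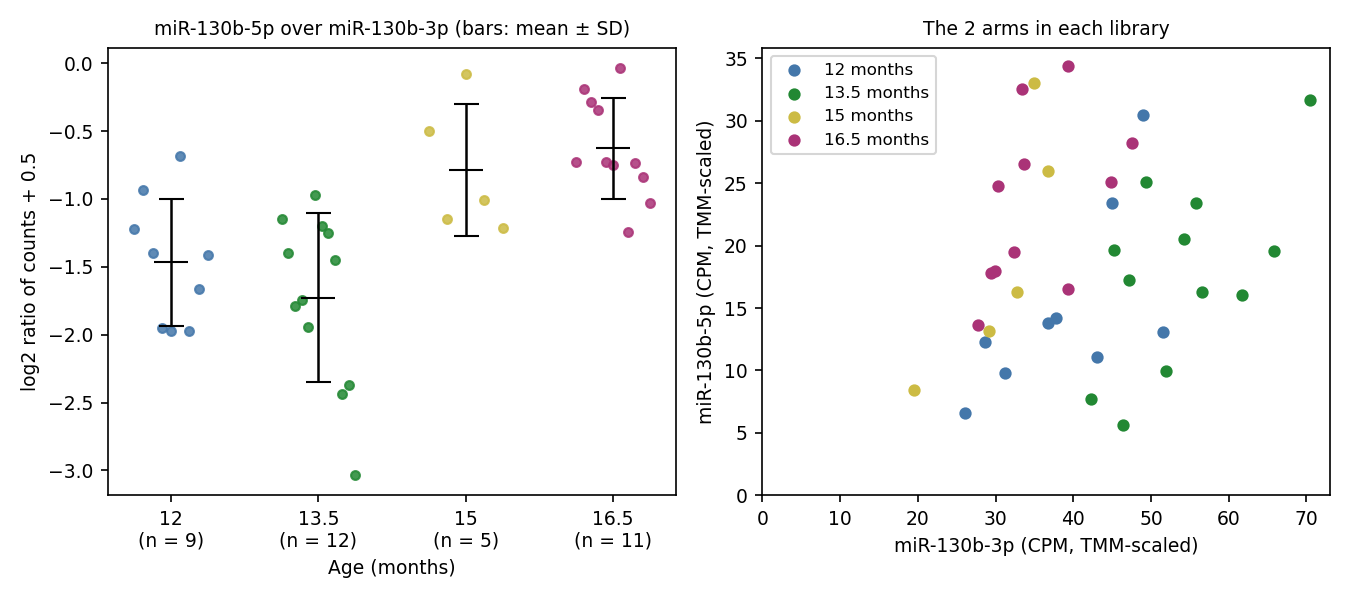
Arms of Mir130b, with 1 point per library. On the left the log2 ratio of counts + 0.5 of miR-130b-5p to miR-130b-3p by age in months has bars for mean ± SD and is higher at 16.5 months (-0.63) than at 13.5 months (-1.73). On the right the CPM of miR-130b-5p is set against that of miR-130b-3p, and the libraries of 13.5 months lie to the right of the others at similar 5p levels.

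The seed AGUGCAA is carried by 4 further mouse microRNAs in RefSeq, namely miR-130c, miR-6341, miR-6389 and miR-721, and each had 0 reads in all 37 libraries. Of the RefSeq microRNAs with this seed, the members alone had reads. A seed that shares a run of 6 bases with it, shifted by 1 position, was found in 7 microRNAs, of which 6 were tested. The miR-148/152 group and miR-19 are shown because their levels exceeded or approached those of the family, with the shared run inside the capitals.
mmu-miR-148a-3p: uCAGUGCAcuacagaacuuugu
mmu-miR-148b-3p: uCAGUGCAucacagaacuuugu
mmu-miR-19b-3p: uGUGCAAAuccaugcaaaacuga
The 5 with the highest mean levels were miR-148b-3p (150 CPM), miR-148a-3p (85.4 CPM), miR-19b-3p (14.3 CPM), miR-350-5p (1.14 CPM) and miR-19a-3p (0.953 CPM). The F-test of age passed in 0 of the 6 (edgeR, smallest adjusted p 0.052), beside 32.2% of all microRNAs tested, with 3 at an unadjusted p under 0.05.

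By contrasts, 3 changes of these seed neighbours passed, each in another microRNA, and 0 of the 6 passed in the other 3 comparisons. miR-19b-3p, a product of the miR-17-92 cluster, averaged 18.6 ± 8.1 CPM (SD, n = 9) in the 12-month libraries and 9.64 ± 7.22 (n = 12) at 13.5 months, with a log2 fold change of -0.93 (SE 0.29, edgeR adjusted p = 0.017), where 11.8% of all microRNAs were lower. miR-148a-3p averaged 115 ± 73 CPM (n = 12) in the 13.5-month libraries and 60.8 ± 20.6 (n = 11) in those of 16.5 months, with a log2 fold change of -0.92 (SE 0.31, edgeR adjusted p = 0.024), where 14.9% were lower. miR-148b-3p averaged 177 ± 78 CPM (n = 9) in the youngest group and 102 ± 34 (n = 11) in the oldest (log2 fold change -0.79, SE 0.28, edgeR adjusted p = 0.049), where 9.6% were lower. The median log2 fold change of the 6 was -0.21 at 13.5 against 12 months and -0.56 at 16.5 against 13.5 months, beside -0.04 and -0.03 over all 323. The signs at 13.5 against 12 months were mixed, with miR-148a-3p at 0.51 (SE 0.32, edgeR adjusted p = 0.27).

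Across the 37 libraries the Pearson correlation of log2(CPM + 1) between miR-130b-3p and miR-130a-3p was 0.33, and 0.07 once the mean of each age was removed. It was -0.25 between miR-130b-3p and miR-301a-3p and -0.33 between miR-130a-3p and miR-301a-3p (0.10 and -0.14 within ages). These correlations describe libraries that share their depth and their scaling factor, and the low counts of miR-301a-3p limit them. The arms miR-130b-3p and miR-130b-5p correlated at 0.28 over all libraries and at 0.65 within ages. At 16.5 against 13.5 months the log2 fold change was -0.61 for the 3p arm and 0.41 for the 5p arm. At 16.5 against 12 months the log2 fold changes were -0.14 and 0.64. Of these changes only the fall of the 3p arm at 16.5 against 13.5 months passed in the main test.

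The microRNAs whose levels were most like each member came from other families. For miR-130b-3p they were miR-1198-5p (r = 0.86), miR-320-3p (0.79) and miR-181b-5p (0.78), whereas miR-130a-3p ranked 71st. For miR-130a-3p they were miR-421-3p (0.51), miR-181b-5p (0.50) and miR-181d-5p (0.46), with miR-130b-3p 15th. For miR-301a-3p they were miR-144-3p (0.73), miR-142a-3p (0.66) and miR-144-5p (0.64). The erythroid miR-144 and the hematopoietic miR-142a gave mean levels of 1.62 CPM for miR-144-3p, 5.86 CPM for miR-142a-3p and 14.4 CPM for miR-144-5p. With the mean of each age removed, the 3 values were 0.71, 0.72 and 0.62 for miR-130b-3p and 0.65, 0.28 and 0.29 for miR-130a-3p. For miR-301a-3p they were 0.69, 0.58 and 0.56. The microRNAs named were picked as the highest over all libraries, so their correlations are a description. The median correlation with all tested microRNAs was between -0.03 and 0.03 for the 3 members.

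Cell markers were examined because whole blood mixes cell types, and fewer cells of a type cannot be told apart from less RNA per cell. Markers of red cells, lymphocytes and myeloid cells all had reads, while the liver-defining miR-122-5p had at most 4 reads in a library. Of the 6 erythroid markers, 1 was higher and 3 lower at 13.5 against 12 months, beside 9.91% and 11.8% of all microRNAs (miR-144-3p, log2 fold change -1.56, miR-144-5p, -1.51, and miR-451a, -1.28 lower, and miR-92a-3p, 1.72 higher, edgeR adjusted p up to 0.015). miR-486a-5p (0.41) and miR-16-5p (-0.17) did not pass (edgeR adjusted p = 0.23 and 0.55). By sign, miR-301a-3p was lower like those 3 and like the myeloid miR-223-3p, and miR-130b-3p was higher like miR-92a-3p. A link to any of these markers was not tested. At 15 against 13.5 months miR-144-5p was higher (1.67, edgeR adjusted p = 6.9e-04) and miR-92a-3p lower (-1.38, adjusted p = 0.035), each 1 of the 6 beside 3.41% and 6.5% of all microRNAs. The same 2 markers passed at 16.5 against 13.5 months, with miR-144-5p higher (1.61) and miR-92a-3p lower (-1.28), beside 11.8% and 14.9%. The summed level of the erythroid list without miR-486a-5p ran from 16004 to 26762 CPM at 12 months, 17861 to 71773 at 13.5, 15900 to 19958 at 15 and 16248 to 20294 at 16.5 months.

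Of the 3 lymphoid markers 0 passed at 13.5 against 12 or at 15 against 13.5 months and miR-342-3p alone was higher at 16.5 against 13.5 months (log2 fold change 0.81, beside 11.8% of all microRNAs) and at 16.5 against 12 months (0.88, beside 4.64%), with sums of 34.3 to 740, 80.7 to 525, 117 to 514 and 138 to 514 CPM by age. Of the 2 myeloid markers 1 was lower at 13.5 against 12 months (miR-223-3p, log2 fold change -0.89, beside 11.8% of all microRNAs), with sums of 14.2 to 54.3, 5.03 to 28.1, 10.04 to 27.5 and 14.0 to 26.2 CPM. The platelet and endothelial list was near 0, with sums of 0.861 to 5.09 CPM at 12 months, 0 to 3.48 at 13.5, 0.692 to 2.52 at 15 and 0.68 to 1.68 at 16.5 months, and 0 of its 2 tested markers passed in any comparison (4 of 12 unadjusted edgeR p-values were under 0.05). The liver list ran from 457 to 899, 230 to 1116, 522 to 1217 and 399 to 776 CPM, carried by miR-192-5p and miR-194-5p, with 0 of 2 passing in any comparison (3 of 12 unadjusted). The part of these markers in the changes of miR-130b-3p and miR-301a-3p was not tested.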

How the data were processed

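Small RNA libraries of mouse blood (TruSeq Small RNA kit) were read as single ends on an Illumina HiSeq. According to the methods, the authors trimmed adapters, discarded reads under 18 bases and counted reads with miRDeep2 against mm10 and miRBase release 21, with 0 mismatches and a window of 2 bases before to 5 after each mature sequence. The authors deposited these as raw counts, with one row per mature microRNA and precursor (2241 rows). They also deposited a normalized signal table of 337 microRNAs, each value being the first row's count times 1 factor per library. Where a microRNA had several rows the first was kept, and each member has 1 row. All 37 libraries had labels, and 0 columns were left out.

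MicroRNAs above 1 read in 50% or more of the libraries were tested with edgeR 4.0.16 (R 4.3.3), with TMM factors between 0.327 and 2.03, the quasi-likelihood F-test of age and contrasts between ages from that fit. The Benjamini-Hochberg adjustment ran over all 323 with a threshold of 0.05. A standard error is the log2 fold change over the root of its F statistic. Log2 ratios used counts + 0.5 and permutation tests (numpy and scipy in Python). Ligation preferences cancel between ages in such a ratio only if they were the same at each age, which was not tested. They do not cancel between members. Alternatives were other filters, scalings and references, DESeq2 1.42.0, limma 3.58.1 on log2(signal + 1), RUVs factors from the published formula, summed rows, a depth covariate, a replicate block and left-out libraries. The tests were checked on simulated data. The members and lists were chosen with earlier results of these data known. Named were the members, their 5p arms, precursors within 10 kb, seed relatives (the 5 highest by mean CPM), the 3 microRNAs most correlated with each member, and marker lists. Intervals cover counting error only.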

Additional observations from a re-analysis of the deposited data

Results flagged for a closer look

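Of 16 combinations of a level or ratio with an age of 5 or 9 libraries, 1 had a library far from the others. For miR-130a-3p at 12 months, replicate 9 had the highest level, 31.4 CPM, and the next library had 24.7 CPM, a gap of 0.577 of the whole range against a limit of 0.493 for 9 libraries (Dixon's criterion). Chance alone flags about 1 in 20 such groups. Without this library the log2 fold change of miR-130a-3p at 13.5 against 12 months was 0.32 and its edgeR adjusted p was 0.088, the lowest over the fits that left out 1 library.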

How the results depend on the processing

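Of the 3 members tested, 1 (miR-130b-3p) passed the F-test of age in the main test, beside 104 of all 323 microRNAs. This count of members became 2 with limma on the deposited values (beside 102 of 337 microRNAs) and with the replicate block (beside 109 of 323). It was 2 at most over the 37 TMM references, and 3 with 2 RUVs factors (beside 143 of 323). It ranged from 1 to 2 without 1 library, with 2 only without replicate 12 of 13.5 months. miR-130b-3p itself passed in each of the 13 other settings, and the added member was miR-301a-3p with limma, the block and without that replicate, miR-301a-3p or miR-130a-3p (lowest edgeR adjusted p 0.037) with a TMM reference, and both with 2 RUVs factors. The deviations of same-numbered libraries gave no sign of pairing (mean correlation of 44 pairs -0.04, other pairs 0.01), and the labels do not say whether they are the same mouse. With the block the ratio tests again gave 3 calls. The arm ratio of Mir130b at 16.5 against 12 months lost its call (exact sign-flip permutation adjusted p = 0.051, beside the main p-values of the other precursors). The rise of miR-130b-3p at 13.5 against 12 months lost its call without a filter (0.44, edgeR adjusted p = 0.18), with library totals (0.17, 0.66) and with some TMM references (adjusted p up to 0.055), and miR-301a-3p lost its own in 3 of 12 settings. Of 30 ratio tests 3 passed, and 0 without the 4 libraries under 200000 counts outside miR-486, where the cluster difference at 16.5 against 13.5 months was -0.51. Without 1 library the count ranged from 3 to 5 (5 without replicate 12 of 13.5 months) and that difference from -0.59 to -0.45. The low counts of miR-301a-3p and miR-301b-3p limit what these libraries can resolve, and the causes of these changes were not tested.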
